A study of Drosophila melanogaster with 2 samples.

Results

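The genes described are 10 components of the epidermal growth factor receptor (EGFR) and Ras MAPK cascade of *Drosophila melanogaster*, among 13945 protein-coding genes on the 6 main chromosome arms. They are *Egfr*, *Shc*, *drk*, *csw*, *Sos*, *Ras85D*, *Raf*, *ksr*, *Dsor1* and *rl*, and all 10 names matched the annotation. The members were named for their place in the cascade but also chosen by measured values of these data, the peak signal at *Shc* and the number of peaks at *Raf*, so their values are given as a description with no test. The data are chromatin immunoprecipitation followed by sequencing (ChIP-seq) of Zfh2, a zinc finger and homeodomain protein, from whole embryos of both sexes collected at 0 to 24 hours. The strain zfh2-GFP carries a transgene in which Zfh2 is fused at its C terminus to eGFP, and the precipitation used an antibody against GFP, per the labels' description. There were 2 biological replicates of this 1 group, each from its own biosample of the same strain, with no untagged or mutant group. Because embryos were used whole, binding in few cells and weak binding in many cannot be told apart.

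In this cascade an activated receptor tyrosine kinase recruits adaptor proteins, and these bring an exchange factor to Ras at the membrane. Ras loaded with GTP activates Raf, which phosphorylates the MAP kinase kinase Dsor1, which in turn phosphorylates the MAP kinase Rolled, the product of *rl*. In fly embryos and discs the pathway is known for ventral ectoderm patterning, muscle and tracheal development, and the choice of photoreceptor fate. The core components are used in nearly every tissue, and several of the ligands are not.

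Calls were read from 4 lists. One list, cut by the authors with the irreproducible discovery rate (IDR), held 4344 peaks, and relaxed lists, which hold sites and background together, held 30000 calls for the pooled replicates, 30000 for replicate 1 and 29690 for replicate 2. Each call has a summit and a signal, a score from the peak caller with no fixed scale that ranks calls within a list. The IDR list was the 4344 strongest pooled calls, so the boundary between an IDR peak and a weaker pooled call is a single value of pooled signal, 64.9. Peaks were assigned to every gene whose body, extended by 1 kb at both ends, held the summit. A summit within 500 bp of any transcription start site (TSS) was called a promoter summit.

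Of the 10 genes, 5 carried an IDR peak, where 33.4% of all protein-coding genes did. These 5 were the adaptor genes *Shc*, *drk* and *csw*, the GTPase gene *Ras85D* and the kinase gene *Raf*. The receptor gene *Egfr*, the exchange factor gene *Sos*, the scaffold gene *ksr* and the downstream kinase genes *Dsor1* and *rl* had none. Among the 200 protein-coding genes closest in length to each member the share with an IDR peak ran from 31.5 to 52.0%. The 5 of 10 lies inside that range, and whether peaks follow the order of the cascade was not tested. The 10 genes had 13 IDR peaks in all, of which 9 lay at *Raf* and 1 at each of the other four. Of the 13, 4 were promoter summits, 8 were intronic and 1 lay in a 5' UTR exon. A promoter summit was present at 4 of the 10 members, and at 29.8% of protein-coding genes. When the IDR list was split by rank into 4 sets of 1086 peaks, 7 of the 13 fell in the strongest set, 3 in the next, 1 in the one after and 2 in the weakest.

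**Figure D1:**
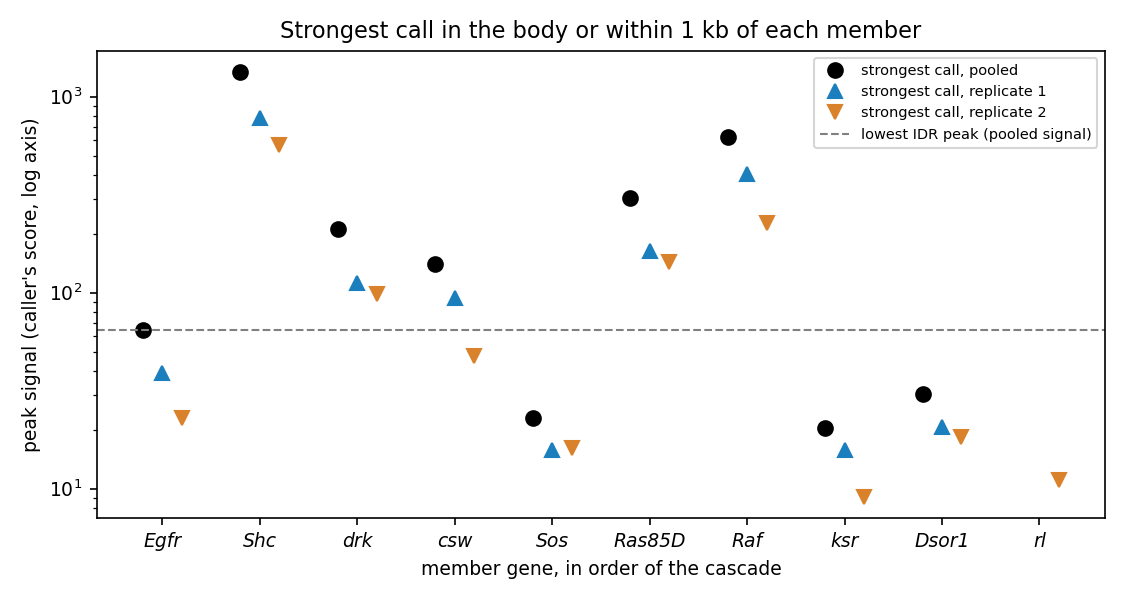
Signal of the strongest call in the body or within 1 kb of each member (log axis) in the pooled list (circles) and in replicates 1 and 2 (triangles up and down), with the lowest IDR signal, 64.9, as a dashed line. *Shc*, *drk*, *csw*, *Ras85D* and *Raf* lie above the line in the pooled list, *Egfr* lies just under it at 64.6, and *rl* has calls in replicate 2 only.

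The strongest peak of the group lay at *Shc*, which encodes a phosphotyrosine-binding adaptor of receptor tyrosine kinases (FBgn0015296, chr3L:9427010-9428671, plus strand). Its interval, chr3L:9426683-9427093, had a signal of 1337 and ranked 10 in the IDR list. The signal was 782 in replicate 1, where it ranked 9, and 568 in replicate 2, where it ranked 10. Both replicates thus placed it among their strongest calls, with summits 23 bp upstream of the pooled summit in replicate 1 and at the same base in replicate 2. The summit lay 96 bp upstream of the *Shc* TSS and 156 bp upstream of the TSS of *Atat*, an alpha-tubulin acetyltransferase gene transcribed in the other direction. Only 251 bp separate the start sites, so the peak belongs to both genes by position and cannot be given to either alone.

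At *Ras85D*, which encodes the Ras GTPase at the centre of the cascade (FBgn0003205, chr3R:9510561-9513067, minus strand), the arrangement was of the same kind. The peak, chr3R:9513039-9513390, had a signal of 306 and rank 372, with 164 in replicate 1 (rank 391) and 144 in replicate 2 (rank 382). The 3 lists gave it almost the same rank. Its summit lay 194 bp upstream of the *Ras85D* TSS and 66 bp upstream of the TSS of *Rlb1*, so *Rlb1* is the nearer start site, and 259 bp separate them. A weaker pooled call downstream of *Ras85D*, with a signal of 42.4, had its summit 10 bp downstream of the TSS of *rump*, which encodes an RNA-binding protein.

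The spacers between both divergent start sites are shown because each holds a peak summit and lies over its whole length within the peak interval. They run from 5' to 3' on the strand of the member, so each ends at the base before its TSS, and come from the RefSeq dm6 genome. Capitals mark matches to TATCGATA, the DNA replication-related element bound by Dref, and to GATAAG on either strand, the word of GATA factors.
Shc (chr3L:9426759-9427009): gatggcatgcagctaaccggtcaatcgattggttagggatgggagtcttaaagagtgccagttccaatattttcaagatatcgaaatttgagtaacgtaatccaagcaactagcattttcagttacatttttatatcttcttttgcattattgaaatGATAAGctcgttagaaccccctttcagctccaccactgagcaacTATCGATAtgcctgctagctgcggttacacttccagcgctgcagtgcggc
Ras85D (chr3R:9513068-9513326): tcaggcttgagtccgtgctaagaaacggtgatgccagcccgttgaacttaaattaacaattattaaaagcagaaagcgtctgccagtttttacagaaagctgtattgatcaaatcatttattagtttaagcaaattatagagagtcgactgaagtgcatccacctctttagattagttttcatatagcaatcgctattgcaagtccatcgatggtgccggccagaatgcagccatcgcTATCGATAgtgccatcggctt
The summit is base 156 of the *Shc* spacer and base 66 of the *Ras85D* spacer. GATAAG starts 2 bp after the *Shc* summit, and TATCGATA starts 46 bp after it and ends 42 bp before the TSS. In the *Ras85D* spacer TATCGATA starts 173 bp after the summit and ends 13 bp before the *Ras85D* TSS, so it is far from the summit and close to the start site. Among all 475 divergent protein-coding pairs with 200 to 300 bp between them, 16.6% held TATCGATA. The share was 18.5% in the 243 pairs with an IDR summit between the start sites and 14.7% in the 232 without, so the word is common in such spacers with and without a peak.

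The third promoter peak lay at *csw*, the gene of Corkscrew, a tyrosine phosphatase with SH2 domains that acts positively downstream of receptor tyrosine kinases (FBgn0000382, chrX:2094234-2115701, plus strand). The interval, chrX:2094118-2094226, was narrow, with 109 bp, and had a signal of 141 and rank 1601. The signal was 93.5 in replicate 1 (rank 1152) and 47.3 in replicate 2 (rank 2543). Replicate 1 was 1.97 times replicate 2, a wider gap than at *Shc* (1.38) or *Ras85D* (1.14). The summit lay 59 bp upstream of the most upstream of 3 *csw* start sites, and no divergent gene shares it, since *Unc-76*, a kinesin adaptor gene, lies upstream on the same strand and ends 285 bp before *csw*. The other 7 pooled calls at *csw* had signals from 15.7 to 30.7, and the other two start sites had no IDR summit. The stretch from 50 bp before the summit to 50 bp after it stops short of the TSS and held none of the 7 words searched. It was 53.5% GC, the highest of the 13 member windows.
csw (chrX:2094125-2094225): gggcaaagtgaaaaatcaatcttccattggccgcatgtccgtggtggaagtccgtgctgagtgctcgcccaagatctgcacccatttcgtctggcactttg

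*Raf* encodes the MAP kinase kinase kinase that Ras activates (FBgn0003079, chrX:2295466-2343870, plus strand), and it carried 9 IDR peaks. Only 0.0574% of protein-coding genes, 8 in all, had 9 or more. Among the 200 genes closest to *Raf* in length, from 41553 to 59668 bp, the median was 1 peak and only *shn* had as many. Among the 461 protein-coding genes of at least 40000 bp, none had more IDR peaks per length than *Raf*, at 1.79 per 10 kb of body and margins. The number of peaks at *Raf* was known when it was chosen, so these ranks describe the locus and test nothing.

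**Figure D2:**
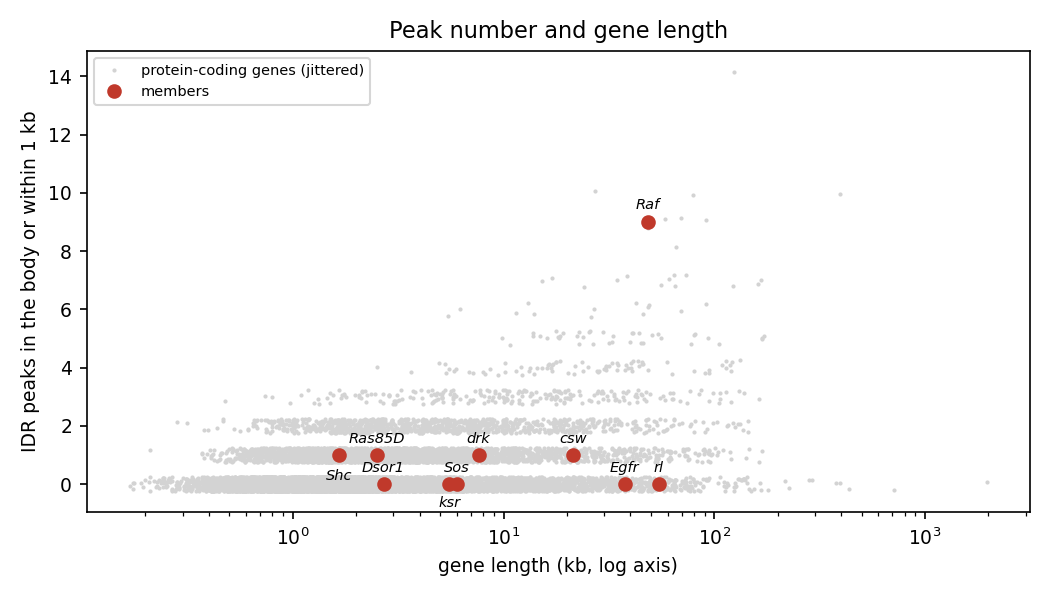
Number of IDR peaks in the body or within 1 kb (vertical axis, jittered for the grey points) against gene length in kb (log axis) for 13945 protein-coding genes, with the 10 members in red. *Raf* has 9 peaks, 4 members have 1 and 5 have 0, including the long genes *Egfr* and *rl*.

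The peaks of *Raf* were grouped near its upstream start. *Raf* has 2 annotated start sites, 44832 bp apart, and the transcript from the upstream one has an intron of 43637 bp (chrX:2296354-2339990) that separates its untranslated leader from the rest of the gene. Of the 9 summits, 7 lay within 11 kb of the upstream TSS, spread over 10101 bp with gaps of 672 to 2982 bp between neighbours. No IDR summit followed for 15671 bp. The 8 summits beyond the leader lay in the long intron, which held 15 of the 18 pooled calls at the gene. Next to the downstream start site, 50 bp upstream of it, lay a pooled call of signal 43.1, which is below the IDR boundary.

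The strongest *Raf* summit lay 2263 bp downstream of the upstream TSS (chrX:2297563-2297864). It had a signal of 625 and rank 81, with 402 in replicate 1 (rank 57) and 227 in replicate 2 (rank 126). The next, at 8655 bp from that TSS, had a signal of 342, with 196 in replicate 1 and 149 in replicate 2. The summit 871 bp from the TSS, in the second leader exon and thus in a 5' UTR, had 291, with 176 in replicate 1 and 113 in replicate 2. The summit at 5245 bp had 255, with 157 in replicate 1 and 98.5 in replicate 2. These 4 peaks all lay among the strongest 1086 of the IDR list. The other summits of the group, at 6880, 5917 and 10972 bp, had signals of 152, 76.3 and 66.0, and the last of them, at rank 4267, was among the weakest IDR peaks.

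The remaining pair of *Raf* summits lay further into the intron, beside genes nested in it. The summit with a signal of 97.3 lay in *lncRNA:CR34052*, 155 bp downstream of its TSS, and is the one promoter summit in the *Raf* body. It had 57.4 in replicate 1 and 36.4 in replicate 2. The summit with a signal of 117 lay 676 bp upstream of *lncRNA:CR33218* and within 1 kb of *CG2854*, with 70.3 in replicate 1 and 48.0 in replicate 2. *Ilp6*, an insulin-like peptide gene that also lies in this intron, had 0 pooled calls in its body or within 1 kb, as did *CG14050*. Replicate 1 alone had weak calls there, with signals of 12.5 and 16.1 near *Ilp6* and 10.9 near *CG14050*, and replicate 2 had none.

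**Figure D3:**
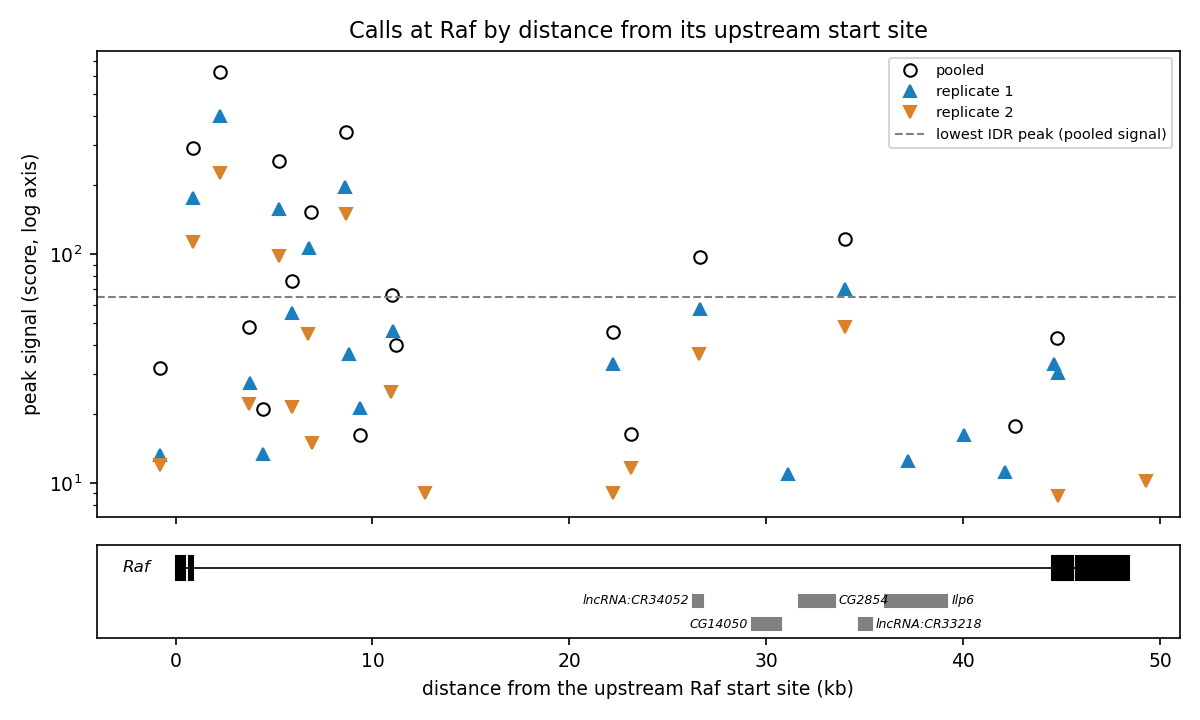
Signal (log axis) of every call at *Raf* in the pooled list (open circles), replicate 1 (triangles up) and replicate 2 (triangles down) by distance from the upstream start site in kb, with exons of *Raf* (black) and genes within its intron (grey) underneath. The 7 IDR peaks within 11 kb of the start site include the strongest at 625, and the dashed line marks the lowest IDR signal, 64.9.

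Windows reaching 50 bp to either side of 4 intronic *Raf* summits are shown on the plus strand from the RefSeq dm6 genome, the 3 strongest and the 1 that holds GAGAGAG, a word of GAGA factor, given in capitals.
Raf summit 1 (chrX:2297679-2297779): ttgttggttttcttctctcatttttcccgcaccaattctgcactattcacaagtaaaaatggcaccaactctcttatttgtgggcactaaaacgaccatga
Raf summit 2 (chrX:2304071-2304171): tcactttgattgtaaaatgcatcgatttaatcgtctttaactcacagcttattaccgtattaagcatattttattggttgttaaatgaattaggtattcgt
Raf summit 3 (chrX:2300661-2300761): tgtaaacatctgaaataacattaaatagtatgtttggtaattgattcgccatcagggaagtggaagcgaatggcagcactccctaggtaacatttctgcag
Raf summit 4 (chrX:2302296-2302396): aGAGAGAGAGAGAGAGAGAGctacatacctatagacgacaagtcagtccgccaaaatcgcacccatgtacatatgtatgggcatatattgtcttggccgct
Over all 13 member windows of this length, GAGAGAG was present in this 1, CAGCTG in the weakest *Raf* window and GATAAG in that of *Shc*. The words TATCGATA, GGTCACAC (of the M1BP motif), TAATTA (a homeodomain core) and CAGGTAG (of Zelda) were present in none. The TATCGATA at *Shc* starts 46 bp after the summit and is cut by the window edge. With 100 bp on each side the *Shc* window held it, as did 7.04% of all IDR windows. In all 4344 IDR windows with 50 bp on each side the shares were 1.10% for GAGAGAG, 5.57% for CAGCTG, 5.96% for GATAAG, 4.01% for TATCGATA, 2.14% for GGTCACAC, 6.98% for TAATTA and 0.483% for CAGGTAG. In windows of equal length just upstream of the start of each protein-coding gene they were 2.74%, 7.68%, 9.19%, 6.30%, 3.06%, 5.62% and 0.631% in the same order. A match, or the lack of one, describes these letters and says nothing of the factor. The windows were 28.7 to 53.5% GC with a median of 39.6%, against a median of 36.6% over all IDR windows.

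*drk* encodes the adaptor with SH2 and SH3 domains that links receptors to Sos (FBgn0004638, 2R 13495222 to 13502841, minus strand). Its IDR peak (13499570 to 13499969) had a signal of 212 and rank 780. The replicates were close, with 112 in replicate 1 (rank 828) and 98.2 in replicate 2 (rank 838). The summit lay in an intron 2523 bp downstream of the nearest *drk* TSS, and 851 bp upstream of the TSS of *mars*, a microtubule-associated protein gene that overlaps *drk* on the other strand. The promoter of *drk* itself had a pooled call with a signal of 60.2, 106 bp upstream of a start site, at rank 4731, with 34.9 in replicate 1 and 22.1 in replicate 2. That call was under the IDR boundary, although both replicates had a summit within 14 bp of it.

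*Egfr*, the receptor gene (FBgn0003731, 2R 21522420 to 21559977, plus strand), came closest to the boundary among the members without an IDR peak. The summit at 21535619 was its strongest in the pooled list, with signal 64.6 and rank 4366, where the last IDR peak had rank 4344 and a signal of 64.9. The call lay in an intron, 11024 bp upstream of the second of the 2 *Egfr* start sites. The nearest TSS was that of *CG30286*, and the call lay 1176 bp downstream of it. The call had 38.9 in replicate 1 (rank 4025) and 23.0 in replicate 2 (rank 6023). The summits of the replicates lay 6 bp from the pooled summit in replicate 1 and 0 bp from it in replicate 2. Its q-value was the smallest the caller gave (−log10 q of 3.99), the same as for every IDR peak and the *drk* call at 60.2. In the pooled list the signal of the *Egfr* call placed it under the boundary. *Egfr* had 11 pooled calls, 7 of them with a summit within 200 bp in both replicates, and the other 10 had signals from 17.0 to 39.3. The nearest IDR summit outside the gene lay 16358 bp past its end, 300 bp upstream of the TSS of *twz*. Of the member calls, the weakest IDR peak was that of *Raf* at 66.0 and the strongest calls outside were those of *Egfr* at 64.6 and *drk* at 60.2.

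*Sos*, *ksr* and *Dsor1* had weak calls in the relaxed lists. At *Sos*, the guanine nucleotide exchange factor gene (FBgn0001965, 2L 13813816 to 13819824), the 1 pooled call had a signal of 23.1 and lay in a coding exon. Replicate 1 had 3 calls there, at most 15.8, and replicate 2 had 1 at 16.2 close to the TSS, so the replicates shared no call. At *ksr*, which encodes a scaffold for Raf and its substrate (FBgn0015402, 3R 5478390 to 5483906), the 2 pooled calls were weak and neither was found in both replicates. The call of signal 18.6 lay in a coding exon of the gene, and the one of 20.3 lay outside its body, 540 bp upstream of the TSS. An IDR summit with a signal of 121 lay 1635 bp from *ksr*, just outside the margin, 2 bp upstream of the TSS of *CG31550*. At *Dsor1*, the MAP kinase kinase gene (FBgn0010269, X 9247342 to 9250037), the 5 pooled calls had signals from 18.7 to 30.3, and 3 of them lay within 200 bp of a summit in both replicates. That is 1.06 pooled calls per kb, the highest density of the 10 genes, and none of the calls ranked above 10593.

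*rl*, the MAP kinase gene (FBgn0003256, 2R 1071462 to 1125927), lies in the heterochromatin near the centromere and is the longest member with 54466 bp. It had 0 pooled calls and 0 calls in replicate 1, while replicate 2 had 7 with signals from 7.77 to 11.1. Of the 200 protein-coding genes closest to it in length, 3 had 0 pooled calls, and 73.5% of all protein-coding genes had at least 1. The nearest IDR summit lay 3390613 bp away, 82 bp upstream of the TSS of *RpL38*. In the first 4 Mb of the arm the IDR list had 0 peaks, the pooled list 8 calls, replicate 1 had 2 and replicate 2 had 29, so calls were few over the whole region. Whether reads could be placed there as well as elsewhere was not tested.

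All 13 IDR peaks of the members lay in a call of each replicate, as did 98.4% of all IDR peaks. The IDR list was made from these replicates, so this share is high by construction. The summits of those calls lay at most 80 bp from the pooled summit in replicate 1 and at most 150 bp in replicate 2. The signal was higher in replicate 1 at all 13, with a median ratio of 1.58 over replicate 2 and a range from 1.14 to 2.56. Over all IDR peaks called in both, the median was 1.18 and 64.4% lay above 1. Of the member peaks, 10 lay on X, where the median over all IDR peaks was 1.29. The medians of 2L, 2R, 3L and 3R were 1.17, 1.21, 1.11 and 1.17. That of chromosome 4, with 23 peaks, was higher than that of X, at 1.43. The 10 member peaks on X, 9 of them at *Raf*, had a median of 1.69. The signal has no common scale across lists, so a ratio above 1 has no meaning by itself and is read only beside the median of 1.18. The ratios of *drk* and *Ras85D*, 1.14 each, lay below that median, and those of all other member peaks lay above it. By rank, 2 of the 13 peaks fell outside the 4344 strongest calls of replicate 2 and 0 outside those of replicate 1, and both of these were *Raf* peaks, with ranks of 6512 and 5486 in replicate 2.

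**Figure D4:**
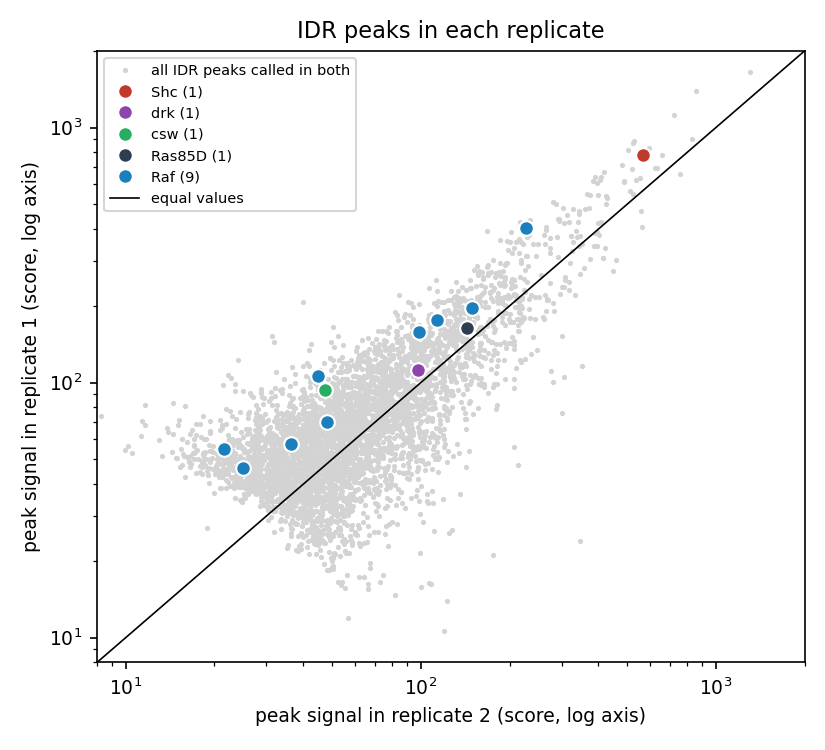
Signal of IDR peaks in replicate 1 against replicate 2 (both log axes), with all 4276 peaks called in both in grey, the 13 member peaks in colour by gene and a line of equal values. All 13 member peaks lie above the line, and the 9 of *Raf* run from 46.2 to 402 in replicate 1.

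The members had 53 pooled calls, 62 calls in replicate 1 and 54 in replicate 2. At least 1 pooled call was present at 9 of them, where 73.5% of protein-coding genes had one. At least 1 call was present at 9 in replicate 1, beside 74.3% of protein-coding genes, and at 10 in replicate 2, beside 73.7%. Of the 40 pooled calls under the IDR boundary, 25 lay in introns, 10 at promoters, 4 in coding exons and 1 between genes. A summit in both replicates within 200 bp was found for 19 of these 40, which is 47.5%, where the share was 36.0% of all 25656 pooled calls under the boundary. *Raf*, *Egfr*, *csw* and *Dsor1* held most of them, and *Shc*, *Sos*, *ksr* and *rl* had none of this kind.

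Other genes of the pathway were taken from a list of 66 names in 8 roles. Of these, 65 matched, and the other was an older name of *RasGAP1*. An IDR peak was present at 42 of the 65, which is 64.6%, against the 33.4% of protein-coding genes given above. The pathway genes were long, with a median of 12.7 kb where that of protein-coding genes was 2.17 kb, and length was not taken into account. The median of the strongest signal at the genes with a peak was 306 for the members, 164 for the other pathway genes and 135 for all protein-coding genes. The member median rests on 5 genes. Because members were chosen partly by the signal at *Shc* and the number of peaks at *Raf*, it is a description only.

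Among the ligand genes, 4 of 5 had a peak. *spi*, the main embryonic ligand, had the strongest, with a signal of 466 at a promoter of its own, and *Krn*, another ligand, had 279 at its promoter. *aos*, which encodes a secreted inhibitor of the receptor, had 226 in an intron. *grk*, the ligand of the germline, had none. Of the ligand processing genes, 2 of 6 had a peak, *S* at 193 and *rho-4* at 74.8, both in introns. The rhomboid protease genes *rho* and *ru* had none. The share for ligand processing, 33.3%, was that of all protein-coding genes, and the roles were not tested against each other.

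Of the other receptor tyrosine kinase genes, 3 of 8 had a peak, led by *InR* at 204, with *Pvr* at 78.7 and *Alk* at 75.0. The *Alk* summit lay 381 bp upstream of the TSS of *gprs*. *sev* and *btl* had none. Adaptor and scaffold genes had peaks at 6 of 8, led by *ave* at 230, *pico* at 202 and *Socs36E* at 162, and *stumps* and *Dab* had none. The *ave* summit was nearer to the TSS of *Rpn6*, 112 bp away, and that of *Socs36E* to *lncRNA:CR44478*.

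Of the Ras family and exchange factor genes other than the members *Ras85D* and *Sos*, 6 of 6 had a peak. The strongest were *Rgl*, a Ral exchange factor gene, at 270, *C3G*, a Rap1 exchange factor gene, at 228 and *Rheb* at 166. The weakest of the 6 had 65.4, close to the IDR boundary. Negative regulators had peaks at 6 of 11, with *RasGAP1* at 277, *Ptp10D* at 170 and *sty*, which encodes Sprouty, at 153, while *Nf1* and *Cbl* had none. Kinases, chaperones and phosphatases had peaks at 7 of 10, with *14-3-3zeta* at 253, *Hsp83* at 209 and *Src64B* at 200, while *Src42A* and *Cdc37* had none. Nuclear effectors had peaks at 8 of 11, with the corepressor gene *gro* at 444, *cic*, whose product is a repressor inactivated by MAP kinase, at 309 and *kay*, the fly Fos gene, at 274. *phyl* and *sina* had none.

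**Figure D5:**
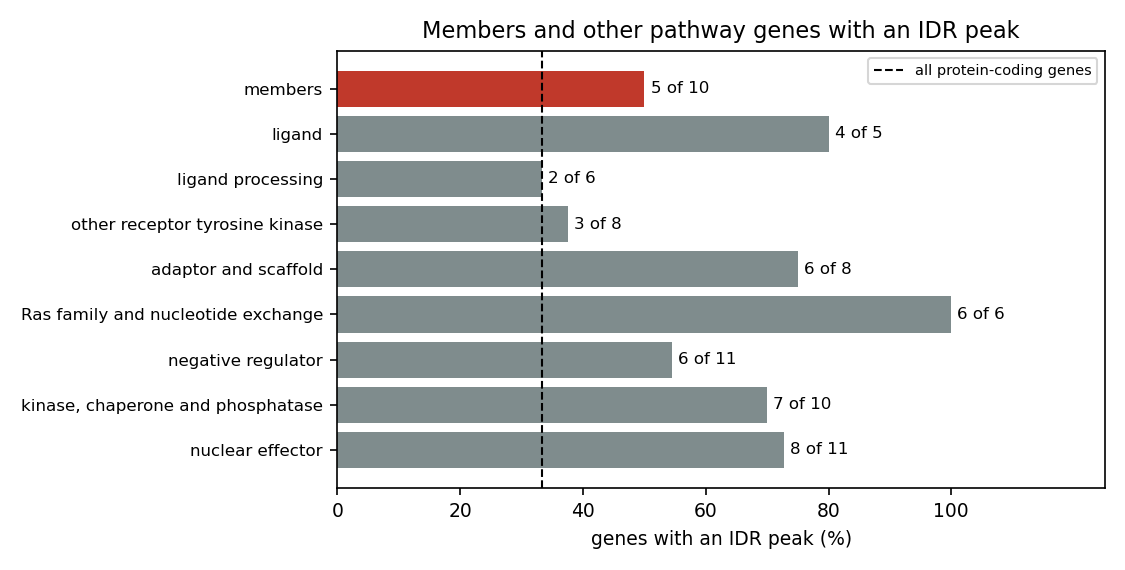
Share of genes with an IDR peak (%) among the 10 members (red) and in each role of the other pathway genes (grey), with counts at the bars and the share of all protein-coding genes, 33.4%, as a dashed line. The bars run from 2 of 6 for ligand processing to 6 of 6 for the Ras family and nucleotide exchange.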

How the data were processed

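ChIP-seq of Zfh2-eGFP was measured in 2 biological replicates of whole embryos, with chromatin sonicated to 200 to 800 bp, per the labels, whose antibody field names zfh2 and whose description names anti-GFP. The deposited dm6 lists hold the caller's signal score, a −log10 q-value and a summit offset, in narrowPeak layout with 10 columns. Per the deposited file descriptions, relaxed calls were made against a control alignment, separately per replicate and on the pooled replicates, and the IDR list was derived from all 3. No aligner, caller or IDR threshold is named (not given in the sources used here). Depth is unknown, as the lists hold no read numbers, and the control is not analysed here. The dm3 lists were not used, since genes were placed on dm6 only.

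Summits were placed (1-based) on Ensembl release 115 genes, whose coordinates fit within the RefSeq dm6 arms, with transposable elements left out. A summit not at a promoter was classed by UTR first, then by coding and other exons, then by intron. Words were searched on both strands, and overlapping matches counted once per window. Members and lists were chosen with earlier results of these data known. The genes named are the 10 members, genes sharing or nearest to their summits, and in each pathway role up to 3 with the highest signal and up to 2 without a peak. Placement was tested on simulated summits. Python 3.11.15 and pandas 2.3.3 were used. With 1 group and 2 replicates no test was made.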

Additional observations from a re-analysis of the deposited data

How the results depend on the processing

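Of 59 recomputed counts, 51 stayed within 1.5 times the reported one and 8 did not. The 51 include counts from the 4344 strongest pooled calls, which are the IDR list itself and could not differ. They also include checks of the member peaks against the replicates, where agreement is high by construction. With a margin of 0 bp, 2 members and 1 promoter peak remained within gene bodies, since the *Shc*, *csw* and *Ras85D* summits lie upstream of the genes. With a margin of 5 kb there were 22 peaks and 13 promoter peaks at the members. When each peak was given to the nearest TSS, 3 members and 2 promoter peaks were counted. A promoter window of 1000 bp gave 7 promoter peaks. With 25 bp on each side, 1 member window held a word, against 3 with 50 bp.

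With the strongest calls of 1 replicate alone, the counts ran from 5 to 6 for members with a peak, from 11 to 15 for peaks, from 6 to 10 for intron peaks and from 42 to 42 for other pathway genes, with 4 promoter peaks from either. *Egfr* was the gene added in replicate 1. In the 5000 strongest pooled calls, a list length chosen after seeing the data, 6 members had a peak, again with *Egfr*. No paired analysis was possible because there was 1 group. Without read numbers, the size of call that depth allows is unknown.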

Other observations

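Of the 8 protein-coding genes with 9 or more IDR peaks, 5 lay on X, which are *CG1677* (14), *CHES-1-like* (10), *kirre* (10), *Tlk* (9) and *Raf* (9). X held 15.7% of protein-coding genes and 19.1% of IDR peaks. Per length of body and margins, *CHES-1-like* was the densest of the 8 with 3.44 IDR peaks per 10 kb, followed by *Raf* with 1.79 and *shn* with 1.49, and *kirre* was the sparsest with 0.252. The remaining 3 genes, *sbb*, *shn* and *CG32264*, lay on autosomes. The strongest signal was highest at *Tlk* with 710 and next at *Raf* with 625.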
